A study of Mus musculus with 26 samples.

Results

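The replication genes examined here are 41 genes of the machinery that copies DNA, chosen by name from the 25814 genes of each table. Every one of the 41 has an entry in the table of each of the 26 libraries, in some at 0 reads. The list was drawn up with earlier results of these data known. Counts of its genes beside shares of all genes are therefore descriptions, not independent support. Before S phase, the origin recognition complex, Cdc6 and Cdt1 load the ring-shaped MCM helicase onto origins of replication, a step called licensing. Cdc45 and the GINS complex then turn the loaded ring into an active helicase, primase and DNA polymerases alpha, delta and epsilon copy the strands, and the PCNA clamp, which replication factor C loads, holds the polymerases on DNA. Most of these genes are transcribed as cells pass from G1 into S phase under control of E2F factors, so resting T cells have little of their mRNA and T cells stimulated by antigen have more. In bulk samples, fewer dividing cells and less mRNA per cell cannot be told apart.

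The study asks how antigen from food bears on T cells of the Peyer's patches, the lymphoid follicles of the small intestine. All T cells were sorted by flow cytometry from C57Bl/6 mice. CD4+ T cells came from mice fed an elemental diet (n = 6), in which amino acids stand in for whole protein, or a conventional diet (n = 6). The CD44 sorts, 7 libraries of CD44+ and 7 of CD44- T cells, were made from conventionally fed mice. CD44 is a surface receptor that is raised on T cells that have met antigen. The labels give neither the age of the mice nor a CD4 gate for the CD44 sorts. They also do not say whether replicates were separate animals, so p-values measure only the spread between these libraries, which may be technical. Exon reads totalled 16401589 to 25415205 in CD4+ libraries, made from 22 ng of RNA, and 7180390 to 13378353 in CD44 libraries, made from 1 ng with another kit. Introns took 3.331% to 4.609% of gene reads in CD4+ libraries and 9.395% to 29.023% in CD44 libraries, so no level or fold change was tested between the 2 pairs of groups, and only their spread is set side by side. The T cell gene Cd3e was present in every library at 150.1 CPM or more.

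On the elemental diet, CD4+ T cells carried less mRNA of the replication machinery than on the conventional diet. Levels are CPM, counts of exon reads relative to library size, scaled with edgeR's TMM factors. The 41 genes summed to between 1081 and 1277 CPM (median 1181) in elemental libraries, against 1427 to 1709 CPM (median 1597) in conventional libraries. The 2 groups did not overlap in this sum. By edgeR's quasi-likelihood test, two-sided, with Benjamini-Hochberg adjustment over all genes, 18 of the 41 genes were lower at an adjusted p under 0.05, where 7.75% of the 11938 genes tested were lower. None of the 41 was higher, where 9.68% of all genes were. The count higher was also 0 at an unadjusted p under 0.05 (2040 of the 11938 genes higher), with DESeq2 (12.5% of all genes higher) and with limma-voom (17.2% higher). DESeq2 called 19 of the 41 lower (11% of all genes) and limma-voom 25 (17.1%). With a minimum fold of 1.5 set in the test, 4 were lower and none higher, against 0.662% and 2.24% of all genes. All 41 passed the filter on low counts, and their median log2 fold change (elemental over conventional) was -0.50, against -0.01 over all genes tested. The fold change was below 0 for 40 of them, and the exception was Gins4 at 0.02. In 10 of the 41, all among the 18, every elemental library lay below every conventional one, a pattern that 2.35% of all genes showed. In none did every elemental library lie above, as in 4.82% of all genes.

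**Figure D1:**
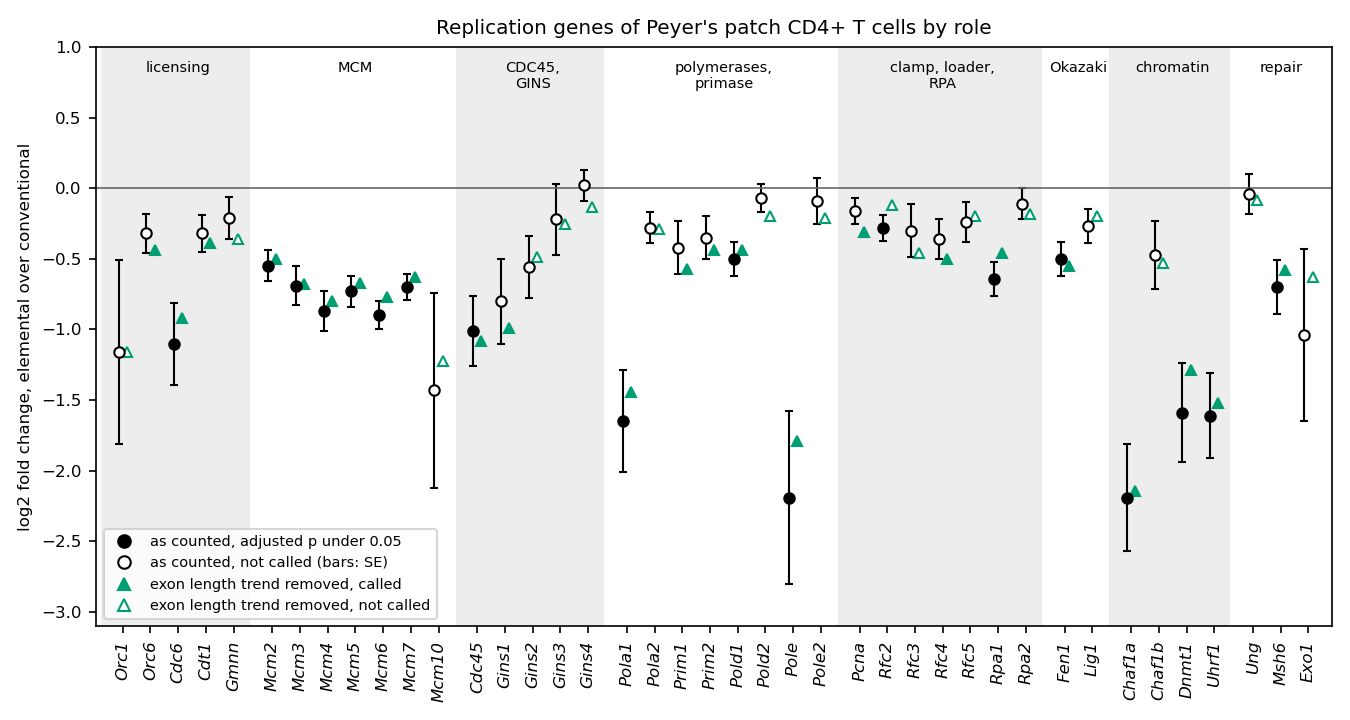
Log2 fold change (elemental over conventional, y axis) of each of the 41 replication genes, grouped by role along the x axis, with circles as counted (bars, SE; n = 6 libraries a group) and triangles after the trend with exon length was removed in each library. Filled symbols had an adjusted p under 0.05; circles reach -2.19 for Chaf1a and Pole, and only Gins4 lies above 0 at 0.02.

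Mcm2 to Mcm7 encode the 6 subunits of the ring that unwinds DNA, and all 6 were lower on the elemental diet. Together they summed to 249.7 to 322 CPM in elemental libraries and 419 to 555 CPM in conventional libraries. Mcm6 had 52.3 to 73.4 CPM (median 63.4) in elemental libraries, against 101 to 127 CPM (median 121) in conventional libraries. The groups were well separated, and its log2 fold change of -0.90 ± 0.10 (SE) had the lowest adjusted p of the 41 genes, 8.22e-05. Mcm5, the most abundant of the 6 per length, had 57.0 to 77.9 CPM (median 62.3) in elemental libraries and 90.0 to 129.7 CPM (median 103) in conventional libraries. Its log2 fold change was -0.73 ± 0.11 (adjusted p = 0.000531). Mcm4, with a median of 27.8 CPM in elemental libraries and 55.4 CPM in conventional ones, fell by 0.87 ± 0.14 on the log2 scale (adjusted p = 0.000971). Mcm7 (-0.70), Mcm3 (-0.69) and Mcm2 (-0.55) completed the ring, and only Mcm3 had overlapping groups. Per kilobase of exon, the 6 subunits averaged between 7.93 CPM (Mcm4) and 18.6 CPM (Mcm5) in elemental libraries, and between 14.5 CPM (Mcm4) and 30.7 CPM (Mcm5) in conventional libraries, so the same genes marked both ends on either diet. Mcm10, which helps to start the helicase and is no part of the ring, was near the limit of detection. It had 0 to 27 reads in elemental libraries and 3 to 56 reads in conventional libraries. Its log2 fold change of -1.43 ± 0.69 did not pass the test (adjusted p = 0.157).

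**Figure D2:**
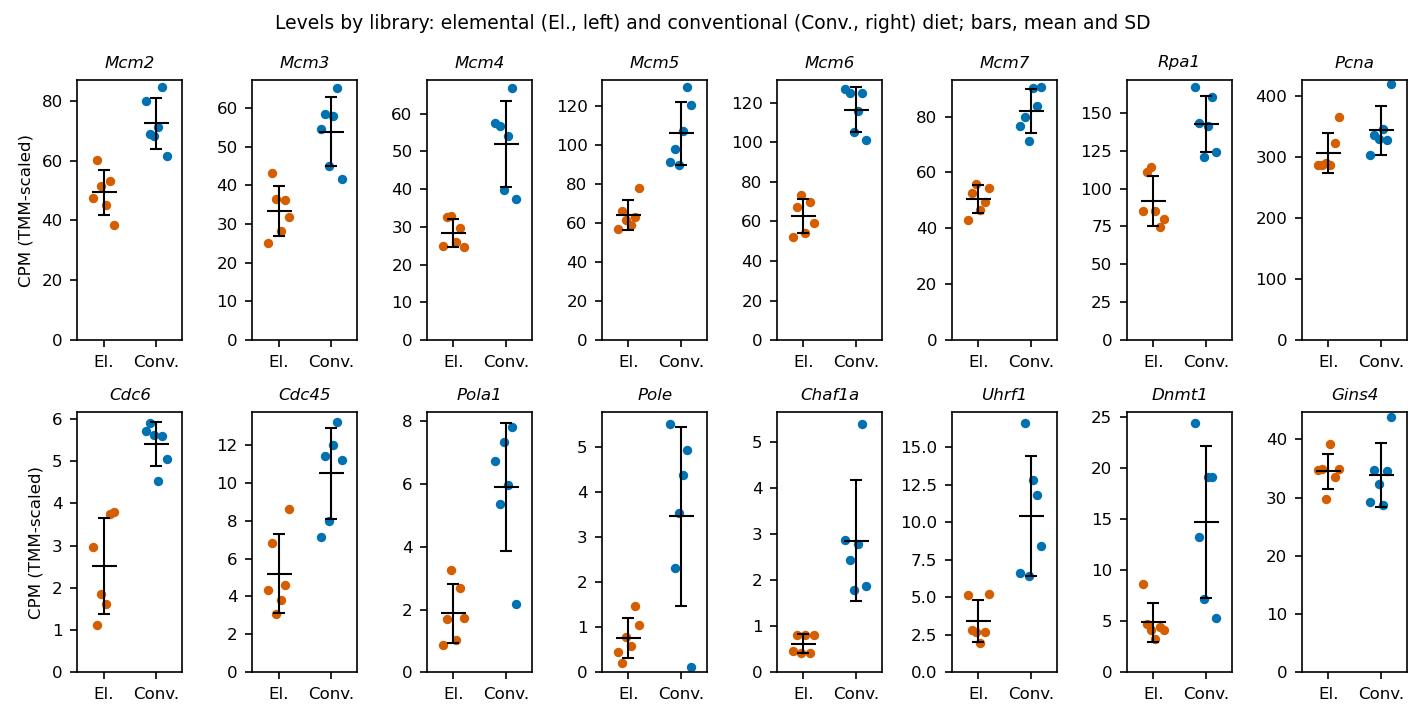
CPM of 16 replication genes in each CD4+ library (points), with elemental libraries on the left and conventional libraries on the right of each panel and the mean and SD as bars. Elemental and conventional points do not overlap for Mcm2, Mcm4, Mcm5, Mcm6, Mcm7, Rpa1, Cdc6, Chaf1a and Uhrf1; they overlap for Pcna and Gins4.

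Promoter sequence is shown for the 2 genes of largest diet change that have an entry in the RefSeq promoter table (build GRCm38.p6), and for 2 helicase genes chosen after their matches were seen. Entries cover 250 bases before to 50 bases after a gene's start, and 32 of the 41 genes have one. Both strands were searched for 4 forms of the E2F binding motif, TTTCCCGC, TTTCGCGC, TTTGCCGC and TTTGGCGC, with overlapping matches counted separately and 1 promoter taken per gene. At least 1 match lay in 13 of the 32 promoters (40.6%), against 2.33% of the 27025 promoters in the table, which include those of noncoding genes. Of the other lists used below, a match was found in 8 of 28 promoters of other replication genes (28.6%), 7 of 23 of G1/S regulators (30.4%) and 1 of 16 of mitosis genes (6.25%). Among the 32, the share was 53.3% (8 of 15) for genes lower on the elemental diet and 29.4% (5 of 17) for the rest. These shares are descriptions with no test, and a match is not a bound site. The 250 bases before the start follow, 5′ to 3′ on the gene's strand, with matches in capitals. In both helicase promoters a pair of matches on opposite strands overlaps, the printed Chaf1a sequence has no match, and Pola1 has 1. The regions are chr17:56040166-56040415 (plus strand) for Chaf1a, chrX:93632156-93632405 (minus) for Pola1, chr8:75109259-75109508 (plus) for Mcm5 and chr1:128359706-128359955 (minus) for Mcm6.
Chaf1a: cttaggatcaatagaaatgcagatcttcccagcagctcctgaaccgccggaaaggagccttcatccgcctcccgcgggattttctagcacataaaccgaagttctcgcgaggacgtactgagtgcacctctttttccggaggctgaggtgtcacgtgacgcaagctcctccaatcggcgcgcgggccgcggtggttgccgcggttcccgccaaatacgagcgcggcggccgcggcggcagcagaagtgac
Pola1: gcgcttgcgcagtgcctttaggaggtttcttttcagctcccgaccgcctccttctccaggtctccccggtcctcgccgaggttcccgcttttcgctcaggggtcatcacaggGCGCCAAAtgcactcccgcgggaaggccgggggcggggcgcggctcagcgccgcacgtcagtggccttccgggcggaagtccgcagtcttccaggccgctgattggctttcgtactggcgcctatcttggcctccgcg
Mcm5: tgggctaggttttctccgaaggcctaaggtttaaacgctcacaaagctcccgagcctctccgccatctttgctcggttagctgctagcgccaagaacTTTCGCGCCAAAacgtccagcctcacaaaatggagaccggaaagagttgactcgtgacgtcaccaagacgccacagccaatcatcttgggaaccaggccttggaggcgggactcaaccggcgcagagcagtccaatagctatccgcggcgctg
Mcm6: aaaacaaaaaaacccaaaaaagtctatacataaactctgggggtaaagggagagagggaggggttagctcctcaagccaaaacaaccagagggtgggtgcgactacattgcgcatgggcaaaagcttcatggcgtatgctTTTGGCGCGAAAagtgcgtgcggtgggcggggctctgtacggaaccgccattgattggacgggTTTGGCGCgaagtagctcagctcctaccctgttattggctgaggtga

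Of the licensing genes, 1 of 5 passed the test. Cdc6, the ATPase that helps to load the MCM ring, had 1.13 to 3.8 CPM (median 2.41) in elemental libraries, against 4.52 to 5.90 CPM (median 5.61) in conventional libraries. The groups did not overlap, and the log2 fold change was -1.10 ± 0.29 (adjusted p = 0.0167). Orc1, the large subunit of the origin recognition complex, had at most 16 reads in an elemental library and 37 in a conventional one, and its log2 fold change of -1.16 ± 0.65 did not pass (adjusted p = 0.215). Orc6, another subunit, averaged 16.5 ± 3.45 CPM in elemental and 20.6 ± 2.84 CPM in conventional libraries (SD; log2 fold change -0.32, adjusted p = 0.13). Cdt1, which brings MCM to origins, averaged 18.8 ± 2.75 and Gmnn, which encodes geminin, the inhibitor of Cdt1, 15.1 ± 3.01 CPM in elemental libraries. In conventional libraries Cdt1 averaged 23.4 ± 3.11 and Gmnn 17.4 ± 2.18 CPM. Neither passed the test (log2 fold change -0.32 for Cdt1 and -0.21 for Gmnn). Only 23.1% of the exon reads of Cdt1 mapped to a single place, so its count is uncertain, and unique reads alone gave a log2 fold change of -0.08 (adjusted p = 0.792).

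Of the genes that activate the helicase, Cdc45 passed the test and the 4 GINS subunits did not. Cdc45 had 3.10 to 8.59 CPM (median 4.47) in elemental libraries, against 7.14 to 13.2 CPM (median 11.3) in conventional libraries. The ranges overlapped slightly, and the log2 fold change was -1.01 ± 0.25 (adjusted p = 0.0127). The GINS subunits were spread, with log2 fold changes of -0.80 ± 0.30 for Gins1 (adjusted p = 0.0708), -0.56 ± 0.22 for Gins2 (adjusted p = 0.0801), -0.22 ± 0.25 for Gins3 (adjusted p = 0.539) and 0.02 ± 0.11 for Gins4 (adjusted p = 0.891). Gins4 was also the most abundant of the 4, at 25.6 ± 2.25 CPM per kilobase in elemental and 25.2 ± 4.07 in conventional libraries, while Gins3 stood at 1.29 ± 0.355 in elemental and 1.51 ± 0.312 in conventional libraries. Gins2 has 24.5% uniquely mapped exon reads and is uncertain for that reason.

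The catalytic subunits of the polymerases were lower on the elemental diet, and their partner subunits did not pass the test. Pole, the catalytic subunit of polymerase epsilon, had 0.214 to 1.47 CPM (median 0.68) in elemental libraries, against 0.122 to 5.49 CPM (median 3.95) in conventional libraries. Conventional replicate 6 had the value 0.122, and the other 5 conventional libraries lay at 2.31 CPM or above, higher than every elemental library. The log2 fold change of Pole was -2.19 ± 0.61 (adjusted p = 0.0229), and the call was lost when conventional replicate 4, conventional replicate 5 or elemental replicate 4 was left out (highest adjusted p = 0.0534). Pola1, the catalytic subunit of polymerase alpha, had 0.867 to 3.26 CPM (median 1.73) in elemental libraries, against 2.19 to 7.83 CPM (median 6.34) in conventional libraries. Its log2 fold change was -1.65 ± 0.36 (adjusted p = 0.00669), and conventional replicate 6 was again the lowest of its group. Pold1, the catalytic subunit of polymerase delta, had 23.6 to 33.8 CPM in elemental and 34.9 to 50.8 CPM in conventional libraries, with no overlap (log2 fold change -0.50 ± 0.12, adjusted p = 0.0093). The log2 fold changes of the accessory subunits were -0.28 for Pola2, -0.07 for Pold2 and -0.09 for Pole2, and none passed. Those of the primase subunits were -0.42 for Prim1 and -0.35 for Prim2, and neither passed. With the trend with exon length removed, as described below, Prim1 (-0.57) and Prim2 (-0.44) passed and the 3 accessory subunits did not. Each catalytic subunit has a longer exon length than its accessory subunit, and the difference between subunits was not tested.

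**Figure D3:**
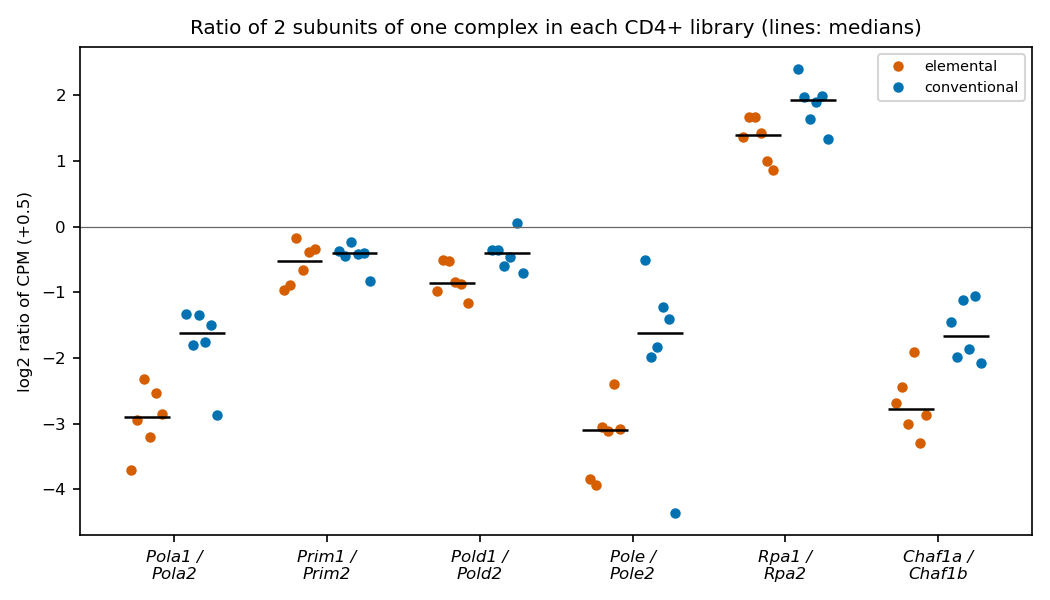
Log2 ratio of the CPM (plus 0.5) of 2 subunits of one complex in each CD4+ library (points), elemental on the left and conventional on the right of each pair, with medians as lines. The median Pola1/Pola2 ratio was -2.90 in elemental and -1.63 in conventional libraries, and the groups overlapped for every one of the 6 pairs.

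The levels of 2 subunits of 1 complex were also compared as ratios within each library. The log2 ratio of Pole to Pole2 ran from -3.94 to -2.40 (median -3.1) in elemental libraries and from -4.36 to -0.50 (median -1.61) in conventional ones. That of Chaf1a to Chaf1b, subunits of chromatin assembly factor 1, had a median of -2.78 in elemental and -1.66 in conventional libraries. For Rpa1 to Rpa2 the medians were 1.40 in elemental and 1.93 in conventional libraries, and for Pold1 to Pold2 they were -0.85 in elemental and -0.40 in conventional libraries. The primase subunits differed least, at -0.53 in elemental and -0.41 in conventional libraries. Exon lengths were 1590 bases for Prim1 and 1975 for Prim2, 3308 for Chaf1a and 2372 for Chaf1b, and 5346 for Pola1 and 2872 for Pola2. They were 3578 for Pold1 and 1729 for Pold2, 5140 for Rpa1 and 2228 for Rpa2, and 7423 for Pole and 1706 for Pole2. The ratios carry no correction for length. All 6 pairs overlapped between the groups, and these ratios were not tested.

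The sliding clamp gene Pcna was the most abundant of the 41, at 202 ± 21.3 CPM per kilobase in elemental and 226 ± 26 in conventional libraries. It had 287 to 366 CPM (median 289) in elemental libraries, against 303 to 419 CPM (median 333) in conventional libraries. The groups overlapped, and the log2 fold change of -0.16 ± 0.09 did not pass (adjusted p = 0.212). Only 46.9% of its reads were unique, and unique reads alone gave an adjusted p of 0.284. Rpa1, the large subunit of the protein that coats single-stranded DNA, had 74.9 to 114 CPM (median 85.3) in elemental libraries and 121 to 167 CPM (median 142) in conventional libraries, with no overlap. Its log2 fold change was -0.64 ± 0.12 (adjusted p = 0.00264), while that of Rpa2 was -0.11 ± 0.11 (adjusted p = 0.502). Of the clamp loader genes, Rfc2 passed narrowly (-0.28 ± 0.09, adjusted p = 0.0436) and lost the call in 9 of 12 fits that left out 1 library. Rfc3 (-0.30), Rfc4 (-0.36) and Rfc5 (-0.24) did not pass.

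Fen1, the nuclease that trims the flaps of Okazaki fragments, had 16.3 to 25.4 CPM in elemental libraries and 25.4 to 31.9 CPM in conventional libraries, so the ranges met at their ends. The fold change was -0.50 ± 0.12 on the log2 scale (adjusted p = 0.01). Lig1, the ligase that seals the fragments, averaged 20.9 ± 2.96 CPM in elemental and 25.2 ± 3.32 CPM in conventional libraries and did not pass (log2 fold change -0.27, adjusted p = 0.135).

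The genes that restore chromatin and DNA methylation behind the fork had the lowest median of any role, a log2 fold change of -1.60, with 3 of 4 genes lower. Chaf1a had 0.414 to 0.81 CPM (median 0.631) in elemental libraries, against 1.79 to 5.39 CPM (median 2.61) in conventional libraries. Its counts were low, 7 to 18 reads in elemental and 29 to 126 in conventional libraries, but the groups did not overlap and the log2 fold change was -2.19 ± 0.38 (adjusted p = 0.0016). Uhrf1, which binds hemimethylated DNA and recruits Dnmt1, had 1.98 to 5.23 CPM (median 2.77) in elemental libraries and 6.42 to 16.6 CPM (median 10.1) in conventional libraries (log2 fold change -1.61 ± 0.30, adjusted p = 0.00247). Dnmt1, the maintenance methyltransferase, had 3.28 to 8.67 CPM (median 4.31) in elemental libraries and 5.29 to 24.4 CPM (median 16.2) in conventional libraries. Its groups overlapped because elemental replicate 1, at 8.67 CPM, lay above conventional replicates 3 (7.23 CPM) and 6 (5.29 CPM). The other elemental libraries lay at 4.77 CPM or below, under every conventional library. The log2 fold change of Dnmt1 was -1.59 ± 0.35 (adjusted p = 0.00748). Chaf1b averaged 6.88 ± 1.76 CPM in elemental and 9.51 ± 2.75 CPM in conventional libraries and did not pass (adjusted p = 0.172).

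Of the repair genes that act at or behind the fork, Msh6, a mismatch recognition subunit, averaged 18.9 ± 4.56 CPM in elemental and 30.7 ± 8.04 CPM in conventional libraries (log2 fold change -0.70 ± 0.19, adjusted p = 0.0195). Ung, the uracil glycosylase, averaged 21.0 ± 4.32 CPM in elemental and 21.6 ± 2.77 CPM in conventional libraries (log2 fold change -0.04 ± 0.14, adjusted p = 0.852). Exo1, a nuclease of mismatch repair, had at most 26 reads in an elemental library and 65 in a conventional one (adjusted p = 0.241).

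The fold changes varied with transcript length, over all genes as well as over these 41. With all tested genes split into 5 equal classes by exon length, the median log2 fold change was 0.17 in the shortest class (204 to 1860 bases), 0.07, -0.04 and -0.13 in the next ones, and -0.29 in the longest class. The median of the replication genes lay below that of all genes in each class, at -0.25, -0.33, -0.70, -0.80 and -1.59. Spearman's rho between log2 fold change and exon length was -0.64 over the 41 genes and -0.36 over all tested genes, a description across genes that share the same libraries. Of the 20 genes longer than the median of 3031 bases, 15 were called, and of the other 21, 3 were called. The trend was uneven among libraries. The median log2 level of the longest class minus that of the shortest, centred per gene, ran from -0.51 to 0.06 in elemental libraries and from -0.50 (replicate 6) to 0.77 (replicate 1) in conventional libraries.

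When each library's trend with exon length was removed, an alternative added after the data were seen, 24 of the 41 genes were lower and none higher, where 6.84% of all genes were lower and 10.2% higher. The median log2 fold change of the 41 stayed at -0.50. Of the 18 genes called before, 17 were called again, and the exception was Rfc2 (log2 fold change -0.12). The 7 genes gained were Orc6 (-0.44), Cdt1 (-0.39, uncertain for its few unique reads), Gins1 (-0.99), Prim1 (-0.57), Prim2 (-0.44), Rfc4 (-0.50) and Pcna. Pcna fell by 0.31 ± 0.06 on the log2 scale in that fit (adjusted p = 0.00279). The pairs of subunits kept their order there, with -1.79 for Pole and -0.21 for Pole2, and -0.46 for Rpa1 and -0.18 for Rpa2. Spearman's rho with length over the 41 genes was then -0.44. Another fit left out conventional replicates 1 and 5, the highest of their group in the trend. It also left out elemental replicates 4 and 6, the lowest of theirs. Conventional replicate 6 (-0.50) was kept, although it lay below elemental replicate 4 (-0.39). This fit had 4 libraries a group and 8 genes lower, where 1.71% of all genes were lower and 3.36% higher. These 8 were Mcm4, Mcm5, Mcm6, Mcm7, Cdc45, Gins1, Chaf1a and Uhrf1, and the median over the 41 was again -0.50.

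**Figure D4:**
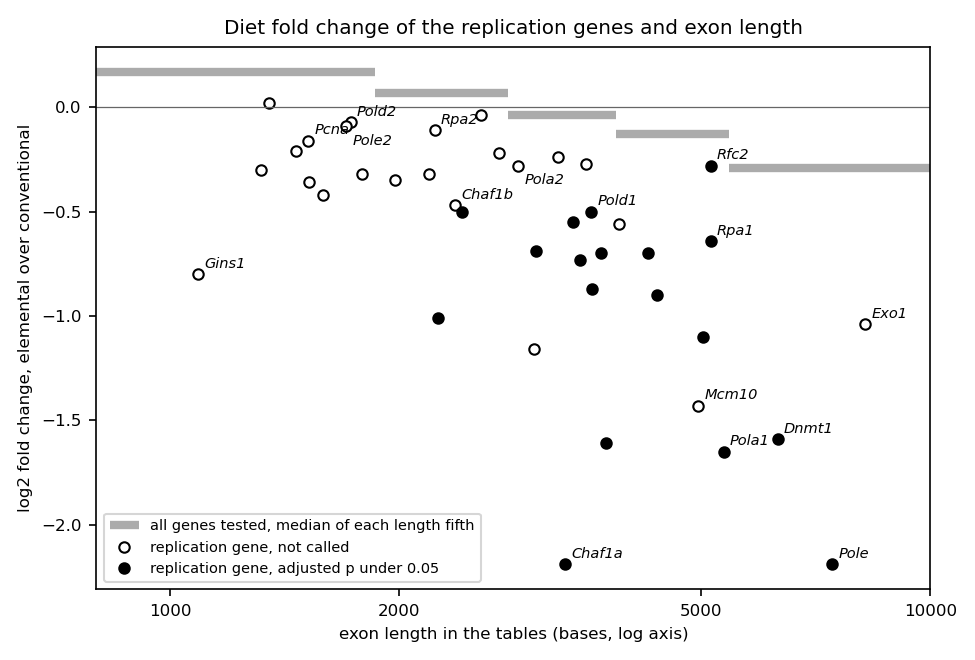
Log2 fold change (elemental over conventional, y axis) of the 41 replication genes against exon length in bases (log axis), with filled circles for an adjusted p under 0.05. Grey bars give the median of all tested genes in each of 5 classes of exon length, cut at the edges of the plot, and step down from 0.17 to -0.29; Pole, Dnmt1 and Pola1 lie far below the bar of their length.

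Abundance went with the size of the fold change too. The 10 genes that averaged under 10 CPM in conventional libraries had a median log2 fold change of -1.13 (median SE 0.37, 4 called), against -0.36 for the other 31 (median SE 0.14, 14 called).

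Intron reads, which come mostly from RNA not yet spliced, were a further readout. They were few in the poly(A)-selected CD4+ libraries, between 303 and 415 reads over the 41 genes in an elemental library and between 403 and 508 in a conventional one. Of the 41 genes, 12 passed the filter in this readout and none was called, where 2.05% of 7059 genes were lower and 2.34% higher. None reached an unadjusted p under 0.05 with edgeR. DESeq2 (3.05% of genes lower, 3.37% higher) and limma-voom (1.98% lower, 2.07% higher) called none either. The median intron log2 fold change of the 12 was -0.21 with edgeR, with a median SE of 0.48 and 7 of the 12 below 0. It was -0.19 with DESeq2 and 0.02 with limma-voom, so its sign depended on the tool. The lowest unadjusted p was that of Rpa1, whose intron log2 fold change was -0.50 ± 0.27 against -0.64 in exon reads. A difference of the median size seen in exon reads was not detectable at this depth.

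Other genes of the same pathways were read from 3 lists. Of 34 further replication genes, 33 were tested and 5 were lower, none higher (median log2 fold change -0.40). Asf1b, a histone chaperone, averaged 13 ± 3.65 CPM in elemental and 24.9 ± 4.64 CPM in conventional libraries (log2 fold change -0.94 ± 0.18, adjusted p = 0.00326). Slbp, which binds histone mRNA, fell by 0.30 ± 0.08 and Orc3, an origin recognition subunit, by 0.40 ± 0.11 on the log2 scale. Timeless, of the fork protection complex, fell by 1.08 ± 0.29 (adjusted p = 0.0199). Of 29 tested regulators of the G1/S transition, 9 were lower and 1 was higher (median -0.40). With the length trend removed 6 were lower and 2 higher (median -0.25), while 7 of the other replication genes (median -0.35) and 13 of the mitosis genes (median -1.52) were lower. Tfdp1, the dimer partner of E2F factors, averaged 46.8 ± 4.21 CPM in elemental and 65.1 ± 4.75 CPM in conventional libraries (log2 fold change -0.47, adjusted p = 0.00196). E2f8, an E2F repressor, had the largest change (-2.08 ± 0.67, adjusted p = 0.0425). Its level was very low, at 0.206 ± 0.187 CPM in elemental and 0.884 ± 0.353 CPM in conventional libraries. Cks1b, a partner of cyclin-dependent kinases, fell by 0.69 ± 0.20. The gene that was higher was Cdkn2d, an inhibitor of CDK4 and CDK6, at 111 ± 10.3 CPM in elemental and 80.4 ± 10.6 CPM in conventional libraries (log2 fold change 0.46 ± 0.10, adjusted p = 0.00543). Of 15 tested mitosis genes 14 were lower, with a median of -1.43, below that of the replication genes. Top2a, the topoisomerase that untangles chromosomes, had 0.629 to 1.81 CPM in elemental libraries and 3.64 to 13.3 CPM in conventional ones (log2 fold change -2.96 ± 0.37). Ccnb1, the mitotic cyclin, averaged 8.16 ± 2.67 CPM in elemental and 19.9 ± 3.61 CPM in conventional libraries, and Cdk1 9.17 ± 4.10 in elemental and 18.9 ± 5.14 in conventional libraries. Birc5, an inhibitor of apoptosis that acts in cell division, fell by 1.10 ± 0.24. The difference between lists was not tested.

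Markers of other cells moved with diet in the same libraries. Of the germinal centre B cell list, 7 of 8 genes were lower, and its sum was 204 to 229 CPM in elemental libraries and 289 to 359.7 CPM in conventional ones. Of the plasma cell list 4 of 8 genes were lower (398 to 872 CPM summed in elemental and 929 to 1973 CPM in conventional libraries), and of the B cell list 3 of 11 (203 to 464 CPM in elemental and 353 to 678 CPM in conventional libraries, overlapping). The myeloid list was higher in 9 of 9 tested genes (719.7 to 1148 CPM in elemental and 409 to 544 CPM in conventional libraries), and the epithelial list in 3 of 11 (323 to 933 CPM in elemental and 54.1 to 652 CPM in conventional libraries). The alpha-beta T cell list, of which 4 of 14 genes were lower, overlapped (4878 to 5495 CPM in elemental and 5059 to 5888 CPM in conventional libraries). The CD8 list had 31.2 to 63.8 CPM in elemental and 35.4 to 70.5 CPM in conventional libraries, overlapping. Its 2 genes went opposite ways (log2 fold changes -0.63 and 0.54), and 1 was called, as higher. The gamma-delta T, NK and ILC list overlapped too, at 117 to 175 CPM in elemental and 133 to 205 CPM in conventional libraries. In that list 1 of 5 tested genes was higher and 1 lower. Apart from 2 genes of the last list, none of the listed genes was at 0 in all libraries of a group. Germinal centre B cells divide and express replication genes as well, and the part of these cells in the lower values was not tested.

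Between CD44+ and CD44- T cells, the replication genes did not separate. The 41 genes summed to 822 to 1419 CPM (median 1172) in CD44+ libraries and 629 to 1632 CPM (median 1019.9) in CD44- libraries. Of the 41, 31 passed the filter on low counts. None was higher in CD44+ cells by edgeR's quasi-likelihood test, where 0.3% of 8343 genes were, and 1 was lower, where 0.467% were. At an unadjusted p under 0.05, 3 of the 31 were higher and 2 lower, against 475 higher and 639 lower of the 8343 genes. DESeq2 called 1 higher (1.94% of all genes) and 1 lower (2.86%), and limma-voom called none (0.348% higher and 0.647% lower over all genes). The median log2 fold change (CD44+ over CD44-) of the 31 was 0.16, against 0.03 over all genes, with 19 above 0 and 12 below. In none of the 41 did the libraries of one group all lie on one side of the other, as 0.396% of all genes did with CD44+ above and 0.36% with CD44+ below. Cd44 itself overlapped between the groups, at 89.2 to 362 CPM in CD44+ and 47.5 to 139 CPM in CD44- libraries. Cd4 was at 12.5 to 69.6 CPM in CD44+ libraries and 38.5 to 482 CPM in CD44- libraries.

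The single gene called was Prim2, the large primase subunit, with 0.297 to 5.47 CPM (median 1.07) in CD44+ libraries, against 0.899 to 86.8 CPM (median 30.8) in CD44- libraries. In CD44- libraries 5 values lay at 20.9 CPM or above and 2, replicates 7 and 8, lay under 1 CPM, inside the range of CD44+ libraries. The log2 fold change was -4.54 ± 1.05 (adjusted p = 0.047). The call was lost in 11 of 14 fits that left out 1 library, where the adjusted p ran from 0.0209 to 0.101, and with total gene reads, which add introns, the log2 fold change was -1.34. Prim1, its partner, averaged 53.5 ± 36.8 CPM in CD44+ and 42.4 ± 28.8 CPM in CD44- libraries (log2 fold change 0.33 ± 0.63). Pola1, of the same complex and named here after its values were seen, had 0.693 to 106 CPM (median 3.08) in CD44+ libraries and 0 to 4.27 CPM (median 1.41) in CD44- libraries. Its log2 fold change of 3.67 ± 1.22 did not pass in edgeR (adjusted p = 0.174) and passed in DESeq2 (adjusted p = 0.0126). One library, CD44+ replicate 6, held the value of 106 CPM, and the next highest was 23.9 CPM.

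**Figure D5:**
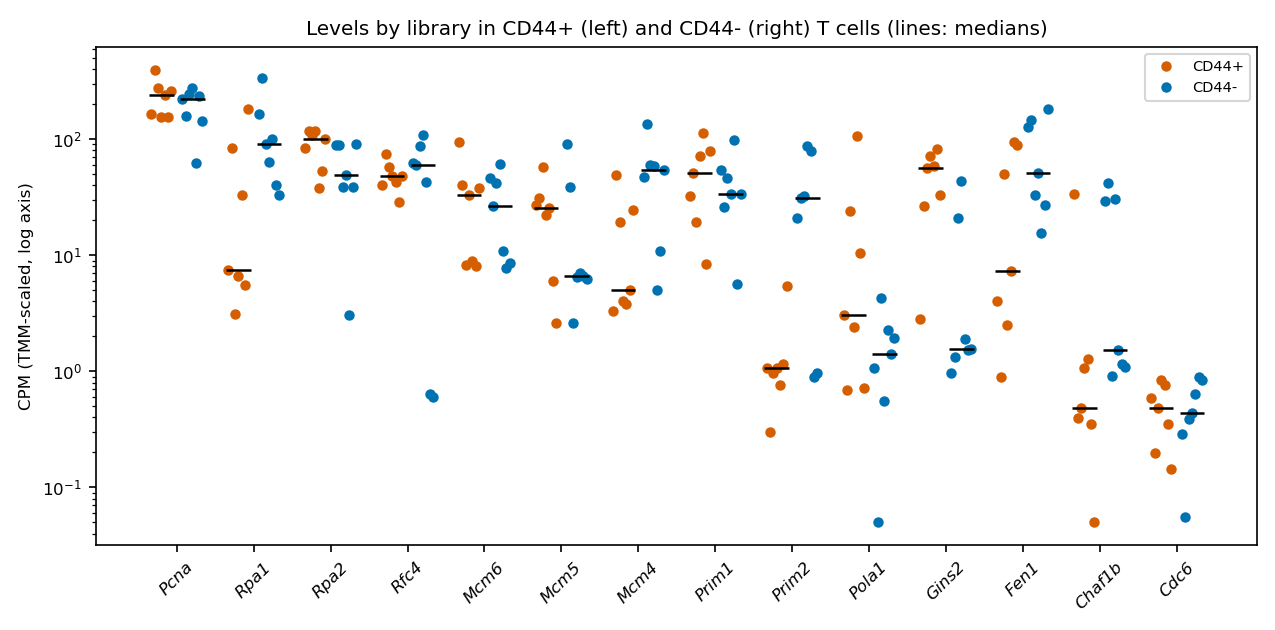
CPM (log axis) of 14 replication genes in each CD44+ library (left of each pair) and CD44- library (right), with medians as lines and values of 0 drawn at 0.05. Prim2 is at 5.47 CPM or below in CD44+ libraries and up to 86.8 CPM in CD44- libraries. Pola1 is at up to 106 CPM in CD44+ libraries and at 4.27 CPM or below in CD44- libraries. The groups overlap for all 14 genes.

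The values of single genes jumped between libraries of the same sort. Over the 31 genes tested, the median coefficient of variation was 85.5% in CD44+ and 82.0% in CD44- libraries, against 19.5% in elemental and 16.5% in conventional libraries over the 41. The same held over all genes tested (82.8% in CD44+, 80.4% in CD44-, 20.1% in elemental and 21.5% in conventional libraries). The highest library exceeded the lowest 10-fold or more for 33 of the 41 genes in CD44+ and 34 in CD44- libraries, against 3 in elemental and 3 in conventional libraries. Pcna was the only gene at 10 CPM or more in every CD44 library, with 155 to 397 CPM in CD44+ and 61.9 to 276 CPM in CD44- libraries (log2 fold change 0.30 ± 0.35, adjusted p = 0.784). Rpa1 ran from 3.12 to 182 CPM in CD44+ libraries and from 32.7 to 335 CPM in CD44- libraries (log2 fold change -1.37 ± 0.82). Mcm5 had a median of 25.7 CPM in CD44+ and 6.68 CPM in CD44- libraries, and a log2 fold change of 0.13 ± 0.85, with 1 CD44- library at 90.1 CPM. Mcm6 had a median of 32.8 CPM in CD44+ and 26.3 CPM in CD44- libraries, and Mcm4 5.01 CPM in CD44+ and 53.8 CPM in CD44- libraries (log2 fold change -1.77 ± 0.80, adjusted p = 0.347).

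Other large values in this pair did not pass the test either. Gins2 had a median of 56.9 CPM in CD44+ and 1.57 CPM in CD44- libraries (log2 fold change 2.20 ± 0.96, adjusted p = 0.322). Cdt1 averaged 8.13 ± 5.78 CPM in CD44+ and 2.84 ± 1.47 CPM in CD44- libraries (log2 fold change 1.51 ± 0.70, adjusted p = 0.355). Cdt1 and Gins2 had 8.07% and 22.1% of unique reads in these libraries, so both are uncertain. Fen1 had a median of 7.34 CPM in CD44+ and 51.3 CPM in CD44- libraries (log2 fold change -1.24 ± 0.89). Lig1 had a median of 48.8 CPM in CD44+ and 20.1 CPM in CD44- libraries (log2 fold change 1.24 ± 0.69). Rfc3 (1.48), Uhrf1 (1.42), Dnmt1 (0.27), Msh6 (0.16), Gmnn (0.12), Mcm6 (0.18), Ung (-0.36), Orc6 (-0.48), Pold2 (-0.68) and Gins4 (-1.21) had log2 fold changes on either side of 0, all with an adjusted p above 0.5. The remaining tested genes, Mcm2, Mcm3, Mcm7, Pola2, Pold1, Pole2, Rfc2, Rfc4, Rfc5 and Rpa2, lay between -0.45 (Pola2) and 0.63 (Rpa2). The 10 genes that failed the filter were Orc1, Cdc6, Mcm10, Cdc45, Gins1, Gins3, Pole, Chaf1a, Chaf1b and Exo1. Among them, Cdc45 reached 23.7 CPM in 1 CD44+ library and 25.8 CPM in 1 CD44- library, with the other libraries at 5.96 CPM or below. Chaf1b reached 33.5 CPM in 1 CD44+ library, and 29.3, 30.2 and 42.1 CPM in 3 CD44- libraries, with the others at 1.52 CPM or below. The median standard error of the 31 genes was 0.82 on the log2 scale, against 0.14 for the same genes in the diet comparison, so a difference of the median size seen with diet was not detectable here.

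In introns of the CD44 libraries, 13 genes were tested, and all 13 had a log2 fold change above 0 in edgeR (median 0.63, against 0.01 over all genes), but none was called, where 0.0138% of 7236 genes were higher and 0.0415% lower. One of the 13, Cdt1, had an unadjusted p under 0.05 (log2 fold change 2.27 ± 0.83, adjusted p = 0.3). DESeq2 called Cdt1 (adjusted p = 0.0221; 2.71% of genes higher, 2.07% lower) and limma-voom called none (0.221% of genes higher, 0.138% lower). With limma-voom the log2 fold changes of Pola2 (-0.68), Pole2 (-0.08) and Prim2 (-0.00078) were below 0. The share of intron reads itself was 20.633% to 29.023% in CD44+ and 9.395% to 27.044% in CD44- libraries.

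The other lists gave no calls for cell division in this pair. None of 26 other replication genes, 21 G1/S regulators and 14 mitosis genes passed the test. At an unadjusted p under 0.05, 1 of the other replication genes was higher and 2 were lower, 2 of the G1/S regulators were higher and 3 lower, and 9 of the mitosis genes were higher and 0 lower, against 475 higher and 639 lower of the 8343 genes. The mitosis genes had a median log2 fold change of 1.91, with Top2a at 5.12 to 43.9 CPM in CD44+ and 2.53 to 11.4 CPM in CD44- libraries. Of the plasma cell list 2 of 6 tested genes were higher, and its sum was 3841 to 8102 CPM in CD44+ and 399 to 3136 CPM in CD44- libraries. The germinal centre B cell list had 482 to 881 CPM in CD44+ and 319.8 to 680.1 CPM in CD44- libraries. The B cell list had 591 to 1982 CPM in CD44+ and 249.7 to 1407 CPM in CD44- libraries. The myeloid list had 992 to 1429 CPM in CD44+ and 677 to 1179 CPM in CD44- libraries, and the alpha-beta T cell list 12038 to 15365 CPM in CD44+ and 10285 to 16578 CPM in CD44- libraries. The part of these cells in the replication values was not tested.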

How the data were processed

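Per the file headers, the authors deposited, for each of 26 libraries, whole-number counts of exon, intron and gene reads and the exon length of 25814 genes. Per the submitters' processing notes the build was GRCm38. The sources used here name no aligner, no counter and no use of strand. The deposited counts of total exon reads were tested as deposited with edgeR 4.0.16 (filterByExpr by group, TMM, robust quasi-likelihood test, R 4.3.3), each comparison on its own 2 groups and adjusted over all genes tested. The code was tested on simulated data. DESeq2 1.42.0 and limma 3.58.1 were alternatives. The exon length trend (lowess, span 0.3, per library) entered as an offset. The 41 genes and all lists were chosen with earlier results of these data known. Values were printed, in each role, for the 2 genes of highest mean CPM, the largest change in each comparison and genes called in neither. For some of these genes only part of the statistics, or a range over several genes, was given. Of the other lists, values were printed for the 3 called genes of highest CPM and the largest change. Itgam was not analysed here. Intron counts were a separate readout. No fold change compares CD4+ with CD44 libraries.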

Additional observations from a re-analysis of the deposited data

Results flagged for a closer look

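Among 164 combinations of a replication gene and a group, 29 held a library whose CPM stood apart from the rest of its group by Dixon's criterion. Its chance rate of about 1 in 20 assumes independent values with a normal spread. CPM need not have that spread and the genes share libraries, so the count cannot be set against that rate. Of the 29, 13 were in CD44+ libraries, 9 in CD44-, 2 in elemental and 5 in conventional libraries. In elemental libraries, Pold2 was 63.6 CPM in replicate 6 (others 45.2 to 50.1) and Dnmt1 was 8.67 CPM in replicate 1 (others 3.28 to 4.77). In conventional replicate 6, Orc1 was 0.122 CPM (others 0.984 to 1.37), Gins2 21.9 CPM (others 11.2 to 14.2) and Pcna 419 CPM (others 303 to 346). Rfc3 was 8.79 CPM in conventional replicate 1 (others 16.0 to 18.9), and Chaf1a was 5.39 CPM in conventional replicate 5 (others 1.79 to 2.87).

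In CD44+ libraries every such value was the highest of its group. Replicate 1 had Mcm6 at 94.1, Chaf1b at 33.5 and Exo1 at 0.592 CPM. Replicate 5 had Orc1 at 1.79, Gins4 at 16.3 and Pola2 at 21.0 CPM. Replicate 4 had Gins1 at 17.5 and Uhrf1 at 23.7 CPM, and replicate 7 had Cdc45 at 23.7 and Chaf1a at 15.8 CPM. Rfc5 was 21.7 CPM in replicate 2, Pola1 106 CPM in replicate 6 and Prim2 5.47 CPM in replicate 8. In CD44- libraries too, every such value was the highest. Replicate 2 had Orc1 at 7.74, Mcm4 at 136, Mcm10 at 10.9, Gins3 at 3.12 and Dnmt1 at 25.3 CPM. Replicate 1 had Mcm5 at 90.1 and Cdc45 at 25.8 CPM. Gins1 was 24.4 CPM in replicate 4, and Gins4 was 56.7 CPM in replicate 6.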

How the results depend on the processing

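With diet, 2081 genes and 18 replication genes (all lower) were called. Limma-voom called 4095 genes, and a minimum fold of 1.5 gave 347 genes and 4 replication genes (77.2% of calls higher, against 55.6%). Dropping the 4 libraries chosen by group on the length trend gave 605 and 8 (66.3% higher). Fitting all 4 groups together, which pools the wider CD44 spread, gave 2 and 0. Leaving out 1 library gave 1299 to 3865 genes (3865 without conventional replicate 6) and 16 to 21 replication genes. Of the 18, 16 kept the call in all of those fits and in 10 other alternatives, the exceptions being Pole and Rfc2. The 10 do not include the minimum fold, the dropping of 4 libraries or the fit of all 4 groups. Those gave 4, 8 and 0 replication genes, as stated above. Gins4 changed sign with the length trend removed (-0.13) and without the 4 libraries chosen on that trend (-0.07). With 1 library left out it ran from -0.02 to 0.11, and Ung from -0.12 to 0.02.

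Between CD44+ and CD44- cells, 64 genes and Prim2 were called. DESeq2 called 401 genes, total gene reads 101, all 4 groups together 1748, a minimum fold of 1.5 gave 30, and leaving out 1 library 36 to 87. Prim2 was not called, leaving 0 lower, with DESeq2's size factors, limma-voom, no filter, total gene reads, the minimum fold and the replicate block, and 0 to 1 were lower with 1 library left out. DESeq2 called 1 gene higher and the fit of all groups 3. In introns DESeq2 called 346 genes, 1 of them a replication gene, and limma-voom 26, against 4. Signs changed for Gins4 (DESeq2 1.08, 1 library left out -2.12 to 0.93), Gmnn (upper quartile -0.0048, limma-voom -0.14, length trend removed -0.26, 1 library left out -0.14 to 0.52), Mcm5 (total gene reads -0.23, 1 left out -0.23 to 1.10), Mcm6 (limma-voom -0.19, 1 left out -0.34 to 0.47), Msh6 (-0.35 to 0.57), Dnmt1 (-0.20 to 0.73) and Ung (-1.23 to 0.35).

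Same-numbered libraries deviated together with correlations of -0.142 to 0.271 with diet and -0.042 to 0.115 for CD44. Of the numbers, 1 of 6 and 1 of 7 matched best with their own, so most showed no pairing. The value of 0.271 was that of replicates 6. Both were also the lowest of their group in the length trend, at -0.51 in elemental and -0.50 in conventional libraries. A shared origin of same-numbered libraries was not tested. With the replicate block, 2033 genes and 17 replication genes were called with diet, and 37 genes and no replication gene for CD44, where Gins4 (0.08), Pold2 (0.08), Ung (0.10) and Gmnn (-0.13) changed sign. The cause of these changes was not tested.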
